A study of Mus musculus with 16 samples.

Results

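The longest unbroken stretches of RNA polymerase II (Pol II) on the chromatin of wild-type (WT) mouse embryonic fibroblasts (MEFs) were examined. They were selected on their width alone: a wide domain was an autosomal Pol II peak of WT MEFs that spanned at least 5000 bp. Of 45870 peaks in that list, 44890 lay on autosomes, and 1008 of these were wide domains, a share of 2.25%. They held 7.98 of the 50.4 Mb inside autosomal Pol II peaks, or 15.8% of the covered bases. A further 13 peaks of this width lay on other chromosomes and were left out. Since width chose the domains, their width and their fold enrichment in WT MEFs are given as a description and were not tested.

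The lists came from chromatin immunoprecipitation and sequencing for the Pol II subunit RPB1, which carries the active site, or for histone H2B carrying a single ubiquitin (H2Bub1). ATXN7L3 is an adaptor that ubiquitin proteases need to take this ubiquitin off, and the study compared Atxn7l3+/+ cells (WT) with Atxn7l3-/- cells (KO), all of the strain DBA/2 x C57BL/6, without other treatment. Both genotypes were studied as embryonic stem cells (mESCs), derived from blastocysts and kept first on feeder cells and then without them with LIF, PD0325901 and CH99021, and as MEFs, grown from E10.5 embryos without head and gut. Many of the KO MEFs were round in culture, and the study calls the cells MEF-like. With 1 library in each of the 8 groups there were no replicates, so differences between lists rest on single libraries and were given without p-values. Intervals in parentheses are exact 95% binomial intervals that cover counting over domains or genes only. The read depth behind the lists is unknown.

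Pol II peaks at most active genes are narrow, because polymerase gathers just past the transcription start before it is released into the gene. A wide peak forms where signal stays above background without a gap, as over short and strongly transcribed genes or past a transcript end, where polymerase goes on until termination. H2Bub1 is placed on nucleosomes in transcribed genes while polymerase passes, and is removed again by the proteases that use ATXN7L3. In fibroblasts, genes for collagens, fibronectin and contractile actin filaments are among the most transcribed.

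The label MEF was checked with marker genes, by a Pol II peak within 1000 bp of the transcription start (TSS). All 9 fibroblast markers had such a peak in WT MEFs, and 7 of them hosted a wide domain. The KO MEF list had it at 8 of 9, with none at Postn. None of 6 pluripotency markers had one in WT MEFs, and none hosted a domain. In KO MEFs 1 of them, Tfcp2l1, had a peak of fold 7.08. The 4 epithelial and 3 blood markers had none in either MEF list, and of 3 endothelial markers, Kdr had a peak of fold 2.61 in WT MEFs and Pecam1 one of fold 4.31 in KO MEFs. Promoters of 4 genes of the Y chromosome carried peaks in WT MEFs and none did in KO MEFs, so sex of the embryos and genotype cannot be told apart in the comparison of these libraries.

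MicroRNAs were among the genes that the wide domains held, and their sequences are shown first because several share a seed. The RefSeq table used here (GRCm38.p6, the build of the peaks) holds 919 autosomal miRNA hairpins and does not cover every miRNA gene, and 55 of them lay whole inside 43 wide domains, while 176 lay inside any Pol II peak of WT MEFs. The mature strands printed here were chosen after the values were seen, as those with a shared seed or in a domain described below. Capitals mark the seed, bases 2 to 8.
let-7i-5p: uGAGGUAGuaguuugugcuguu
let-7e-5p: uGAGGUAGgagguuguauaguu
miR-125a-5p: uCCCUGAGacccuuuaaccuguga
miR-125b-5p: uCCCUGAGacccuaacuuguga
miR-27a-3p: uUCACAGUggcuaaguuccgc
miR-27b-3p: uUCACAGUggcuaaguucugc
miR-24-3p: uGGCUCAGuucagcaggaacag
miR-199a-3p and miR-199b-3p: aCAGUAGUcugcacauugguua
miR-214-3p: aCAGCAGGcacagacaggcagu
miR-21a-5p: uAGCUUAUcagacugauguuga
miR-22-3p: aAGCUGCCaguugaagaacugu
miR-196b-5p: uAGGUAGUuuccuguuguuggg
miR-675-3p: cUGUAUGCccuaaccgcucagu

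Genes of miRNAs with the same seed lay in separate wide domains on different chromosomes. The let-7 seed GAGGUAG, which pairs with many growth and cell cycle transcripts, occurred in a domain at chr10:122979183-122988286 with Mirlet7i and in one at chr17:17825479-17847795 with Mirlet7e. The latter domain, 22317 bp wide and over the coding gene Spaca6, also held Mir125a. Its seed partner Mir125b-1 lay in a domain of 24002 bp at chr9:41577570-41601571 that touched no coding gene. Both copies of the miR-23, miR-27 and miR-24 cluster were inside wide domains, one at chr8:84206650-84215985 at the end of Zswim4 and the other at chr13:63298477-63318528 inside both Fancc, on the opposite strand, and 2010111I01Rik, on the strand of the cluster. Mir199a-2 and Mir214 lay within Dnm3, again on the opposite strand, in a domain at chr1:162214935-162228415, and Mir199b lay in a domain at chr2:32315255-32320808 that overlapped Dnm1.

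Where these miRNA genes lay, KO MEF peaks covered the Pol II domain of WT MEFs to shares above and below the median of all domains. The covered share is the percentage of the bases of a domain that lie inside peaks of the other list. Over all wide domains its median for KO MEF Pol II was 72.3%, with quartiles of 47.2% and 89.1%. KO MEF peaks covered 96.1% of the Mirlet7i domain, 87.5% of the Mirlet7e and Mir125a domain and 78.5% of the Mir125b-1 domain. They covered 95.8% and 99.7% of the domains of the miR-23a and miR-23b clusters, 60.3% of the Mir199a-2 domain and 55.3% of the Mir199b domain. The domain of Mir21a, a miRNA at the end of Vmp1 that is abundant in cultured fibroblasts, had a fold of 40.6 and was covered at 91.3%. The domain of Mir22 had a fold of 35.5 and was covered at 93.3%.

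WT mESC peaks covered 0% of the domains of Mir125b-1, Mir199a-2 and Mir199b and 6.10% of that of Mir21a. Of all wide domains 35.8% had 0%, and the median was 11.2%. The shares were 19.3% for Mirlet7i and 25.3% for Mir22. The lowest KO MEF shares among miRNA domains were 0% at Mir675, inside H19, 0% at Mir483, inside Igf2, and 3.75% at Mir196b, in the HoxA cluster.

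Promoters are shown for 3 host genes of the actin and immediate early lists with a CArG box, the binding motif of serum response factor (SRF), and for the host of the domain with the highest fold. They were chosen after the motif search. The windows come from RefSeq (GRCm38.p6), end at the last base before annotated exons, and run 5′ to 3′ on the strand of the gene. Capitals mark the CArG box or the letters TATAAA on either strand.
Srf: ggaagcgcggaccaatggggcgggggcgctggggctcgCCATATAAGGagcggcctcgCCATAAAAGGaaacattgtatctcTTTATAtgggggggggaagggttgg
Actg1: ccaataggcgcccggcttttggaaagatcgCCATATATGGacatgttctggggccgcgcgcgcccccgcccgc
Cnn2: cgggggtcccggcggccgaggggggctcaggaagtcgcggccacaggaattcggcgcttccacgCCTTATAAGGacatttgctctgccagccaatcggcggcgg
Zfp36l1: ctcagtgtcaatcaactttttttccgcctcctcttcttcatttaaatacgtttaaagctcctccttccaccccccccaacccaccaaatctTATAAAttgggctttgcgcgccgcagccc

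Srf encodes SRF itself, and its window lies on the minus strand at chr17:46556176-46556282. Actg1 encodes cytoplasmic gamma-actin (minus strand, chr11:120348543-120348615), and Cnn2 encodes an actin-binding calponin (plus strand, chr10:79988480-79988583). Zfp36l1, which encodes a protein that promotes decay of AU-rich mRNAs (minus strand, chr12:80113014-80113133), hosted the domain with the highest fold. RefSeq promoters were found for 301 of the 401 host genes that hold their TSS inside a domain, some with several starts, which gave 372 windows from 250 bp before to 50 bp after the start. Motifs were searched on both strands. A CArG box occurred in 2.96% of these windows (1.49 to 5.23) against 1.57% of all 31396 promoters, and in 4 of the 37 windows, or 10.8% (3.03 to 25.4), of hosts on the lists of actin cytoskeleton and of immediate early and SRF-responsive genes. The latter list was drawn up in part from known SRF targets and holds Srf itself, so a higher share of this motif is built into it. TATAAA occurred in 11.6% against 13.6%, and CCAAT in 37.6% against 37.3%. In the 37 windows of actin and immediate early hosts, TATAAA occurred in 27.0% (13.8 to 44.1) and CCAAT in 59.5% (42.1 to 75.2). GGGCGG, the core of the GC box bound by SP1 and its relatives, occurred in 68.5% (63.6 to 73.2) against 36.0% of all and 48.3% of coding gene promoters. These matches describe letters in a window and not binding.

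The wide domains were 5001 to 54257 bp long, with a median of 6675 bp. Of these, 162 spanned at least 10000 bp and 20 at least 20000 bp. Their fold enrichment, the height of the peak summit over local background as the authors' peak caller gave it, ran from 2.89 to 47.1 with a median of 15.5. The median was 11.5 for peaks of 2000 to under 5000 bp and 3.93 for all autosomal peaks under 5000 bp. Width and fold did not rank the same genes: the widest domain had a fold of 11.4 and the domain with the highest fold was 8400 bp wide. The domains just above the width threshold lay in Ddx39 (5001 bp), Nedd4 (5009 bp) and Mbnl1 (5012 bp). The peaks just below it lay in Cyth2 (4991 bp), Chd2 (4991 bp) and Golga3 (4990 bp), and their KO MEF shares of 85.3%, 15.6% and 41.5% were as spread as the 32.6%, 17.5% and 78.0% of the domains just above.

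**Figure D1:**
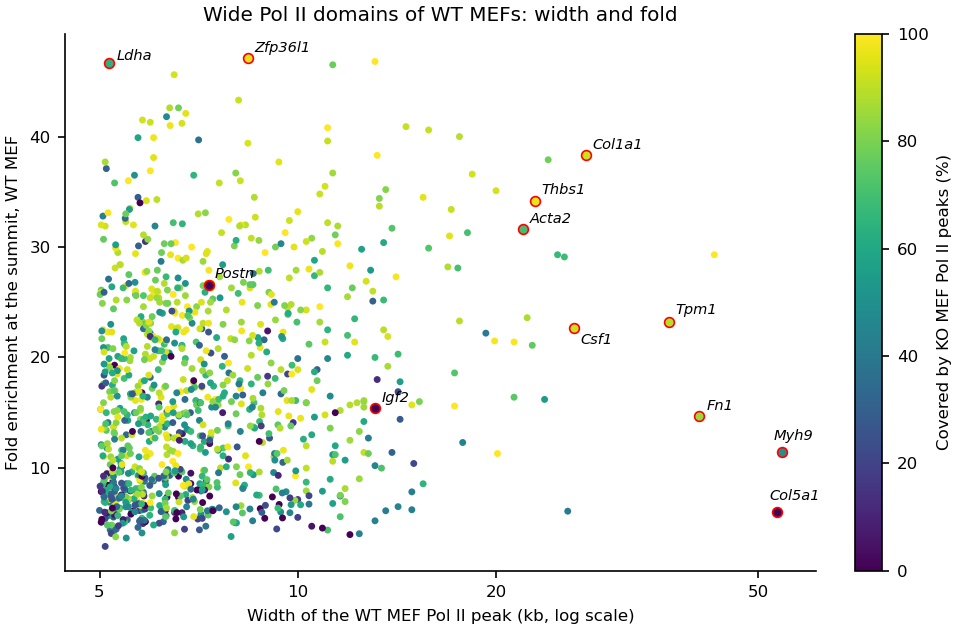
Each point is 1 of the 1008 wide domains, by its width (kb, log axis) and its fold enrichment in WT MEFs, coloured by the share that KO MEF Pol II peaks covered; circled points are named after their host gene. Myh9 and Col5a1 are the widest at 54.3 and 53.5 kb with folds of 11.4 and 5.98, and the dark circled points of Col5a1, Igf2 and Postn had no KO MEF Pol II peak.

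Most wide domains belonged to protein-coding genes. A coding gene overlapped 919 domains, and the gene with the largest overlap was taken as the host. There were 791 hosts, or 3.80% of the 20807 autosomal coding genes. Domains in the same host are not independent of each other: 72 hosts had at least 2 domains and 18 had at least 3. The domain covered a median of 21.9% (19.2 to 24.7) of its host gene, and at least 50% of the host in 267 domains, or 29.1%. Of all domains, 363 touched at least 2 coding genes, 203 held a whole coding gene and 32 held at least 2 of them. The 244 coding genes held whole were short, with a median length of 3080 bp against 17629 bp for all autosomal coding genes.

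The 10 widest domains lay over genes of several kinds. Myh9, the heavy chain of non-muscle myosin IIA, held the widest one (chr15:77772522-77826778, 54257 bp), which covered 66.5% of the gene. Col5a1, the alpha 1 chain of type V collagen, held a domain of 53475 bp (chr2:27969122-28022596) over 34.9% of its length. A domain of 42854 bp at chr19:5809194-5852047 held the whole of Neat1, the long RNA that builds paraspeckles, and reached into the end of Frmd8. Fn1, which encodes fibronectin, held one of 40647 bp (chr1:71592136-71632782).

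Tpm1, which encodes tropomyosin, lay whole inside a domain of 36583 bp (chr9:67016016-67052598) that began 3192 bp upstream of its TSS and ran 6574 bp past its end. Col1a1, the alpha 1 chain of type I collagen, was held whole by 27438 bp (chr11:94932163-94959600), with 4061 bp upstream and 6558 bp past the end. Csf1, a growth factor for macrophages, was also held whole (26304 bp), and so was Rnd3 (24799 bp). Pmepa1, a gene of the TGF-beta response, held 25698 bp inside its body. A domain of 25396 bp covered the long RNA Carmn with Mir143 and Mir145a, which are not in the hairpin counts above, and no coding gene.

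KO MEF Pol II covered these widest domains to very different extents. It covered 99.6% of the Neat1 domain, 92.5% of Col1a1, 92.0% of Csf1, 89.1% of Tpm1 and 84.9% of Fn1. The share was 68.8% at Carmn, 67.4% at Rnd3, 49.5% at Myh9 and 41.6% at Pmepa1, and it was 0% at Col5a1. In Myh9 the covered bases were spread over 35 separate KO peaks, the most in any domain, and in Fn1 over 23. Neither mESC list had a Pol II peak in the domains of Myh9, Fn1, Csf1 and Pmepa1.

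The 10 domains of highest fold were shorter, at most 13126 bp wide. Zfp36l1 reached 47.1, and the domain at chr19:5792575-5805700 with the nuclear long RNA Malat1 reached 46.8. Ldha, the A subunit of lactate dehydrogenase, reached 46.7, Ptms 46.5, and Gadd45g, a gene of the stress response, 45.6. The start of Col1a2, the alpha 2 chain of type I collagen, reached 43.3. Rcc1, whose domain held the snoRNA host gene Snhg3, and Rhob, a small GTPase with immediate early kinetics, both reached 42.6. Eif4a2, a translation initiation helicase, reached 42.1, and Ext1, an enzyme of heparan sulfate synthesis, 41.8. KO MEF peaks covered 47.4% of the Ext1 domain and 64.4% of the Ldha domain, and from 77.1% to 100% of the other 8.

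The domains differed in where they lay on the host gene. A whole gene with both ends was inside 146 of them, or 14.5% (12.4 to 16.8) of all domains. The TSS alone was inside 255 and the transcript end alone inside 309, while 209 lay inside the gene without either end and 89 touched no coding gene. Domains over a whole gene had a median fold of 24.1 and those at the start 20.8, against 12.4 at the end and 9.98 inside. The host was a short gene where it was held whole, with a median length of 3928 bp, and a long one for domains inside it, with 69693 bp. The summit was within 1000 bp of the TSS in 35.4% of the 919 domains with a host, within 1000 bp of the transcript end in 8.49%, further past the end in 16.9% and elsewhere in the gene in 37.1%.

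Nearly as many domains passed the transcript end as did not. Of 919, 455 (49.5%; 46.2 to 52.8) went past it, by a median of 3467 bp and at most 40508 bp, the latter in the Neat1 domain counted from Frmd8. In the other direction, 401 domains passed the TSS, by a median of 1487 bp. For hosts at least 5000 bp from any other coding gene, 39.3% of 366 domains passed the end.

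Coverage was followed across the transcript end. Along the 424 domains that reached at least 1000 bp past the end, the rule fixes WT MEF Pol II at 100% from the end to that distance. KO MEF Pol II covered 64.2% of them at the end itself, 74.1% at 250 bp and 76.4% at 1000 bp past it. KO MEF H2Bub1 covered 60.8% of them at 1000 bp before the end, 56.1% at the end and 50.9% at 1000 bp past it. In WT MEFs the H2Bub1 values at these places were 23.6%, 16.7% and 15.1%. WT mESC Pol II covered 27.4% at the end and 37.7% at 1000 bp past it. Over the first 1000 bp, which all these domains reach by selection, the KO MEF and WT mESC Pol II lists were thus higher than at the end and KO MEF H2Bub1 lower, while WT MEF H2Bub1 was still at 16.7% at 500 bp. These Pol II lists stayed above their level at the end out to 2000 bp, with 66.0% and 27.8% there, and were below it from 2250 bp on. At 3000 bp KO MEF Pol II covered 51.4%, WT mESC Pol II 19.1%, KO MEF H2Bub1 37.0% and WT MEF H2Bub1 8.49%. WT MEF Pol II itself covered 76.2% there, since part of the domains had ended, so values beyond 1000 bp also carry the extent of the domains.

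**Figure D2:**
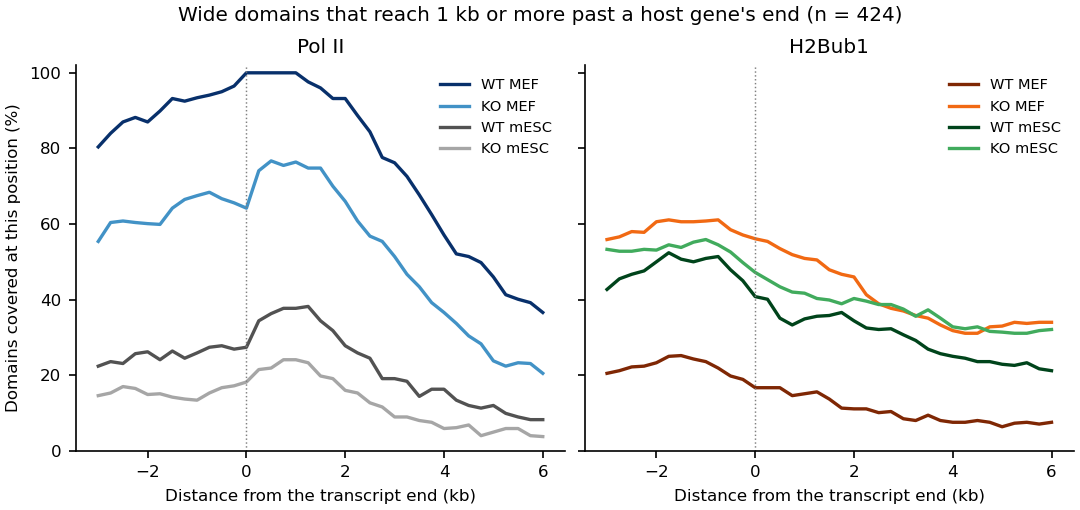
Share of 424 wide domains covered (%) at each distance (kb) from the transcript end of the host, for the 4 Pol II lists (left) and the 4 H2Bub1 lists (right); WT MEF Pol II is 100% from the end to 1 kb by selection. KO MEF Pol II is at 64.2% at the end, 76.4% at 1 kb and 51.4% at 3 kb past it, and KO MEF H2Bub1 at 56.1%, 50.9% and 37.0%.

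Within single domains, the gene was covered more than the part past the end in both kinds of list. This was measured in 135 domains that held the whole host gene, began upstream of its TSS and reached at least 1000 bp past its end. The upstream part had no minimum length and was short in some, such as 173 bp at Pdlim7. The median H2Bub1 share of WT MEFs was 0% upstream, 48.9% (35.3 to 60.2) in the gene and 0% past the end. In KO MEFs it was 81.3% upstream, 100% in the gene and 56.3% (40.9 to 74.9) past the end. The gene part was covered more than the part past the end in 97 domains in WT MEFs and less in 12, and in KO MEFs in 90 and 13. KO MEF Pol II covered the 3 parts at 87.7%, 96.1% and 84.9%, with the gene part higher in 94 domains and the part past the end in 24. The median difference between the gene and the part past the end was 5.71 percentage points (2.38 to 9.07) for KO MEF Pol II and 27.5 (9.54 to 44.7) for KO MEF H2Bub1. In mESCs the H2Bub1 medians were 6.10%, 77.6% and 20.6% in WT and 75.7%, 95.1% and 30.5% in KO.

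To see how much of each domain was still occupied without ATXN7L3, KO MEF Pol II peaks were laid over the domains. They touched 962 of 1008, or 95.4% (94.0 to 96.6), against 45.2% of all autosomal WT MEF Pol II peaks. They covered a median of 72.3% (69.7 to 74.9) of a domain, with quartiles of 47.2% and 89.1%. At least 50% was covered in 731 domains, or 72.5%, all of it in 31, and none in 46. Peaks of 2000 to under 5000 bp were touched at 89.1% with a median of 68.3%.

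Strength went with coverage. In 5 groups of equal size, from the weakest to the strongest domains by the peak's -log10 p, the KO MEF Pol II median was 44.8%, 65.8%, 74.0%, 79.7% and 89.2%. Of the 46 domains without a KO peak, 26 were in the weakest group and 1 in the strongest. Among peaks of like fold, within the middle quartiles of the domains, wide and narrower peaks were both touched at 97.6%. The median covered share there was 73.8% (70.3 to 77.1) of 504 wide domains and 83.3% (82.7 to 83.7) of 7396 narrower peaks. The part of width in these shares was not tested beyond this comparison.

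**Figure D3:**
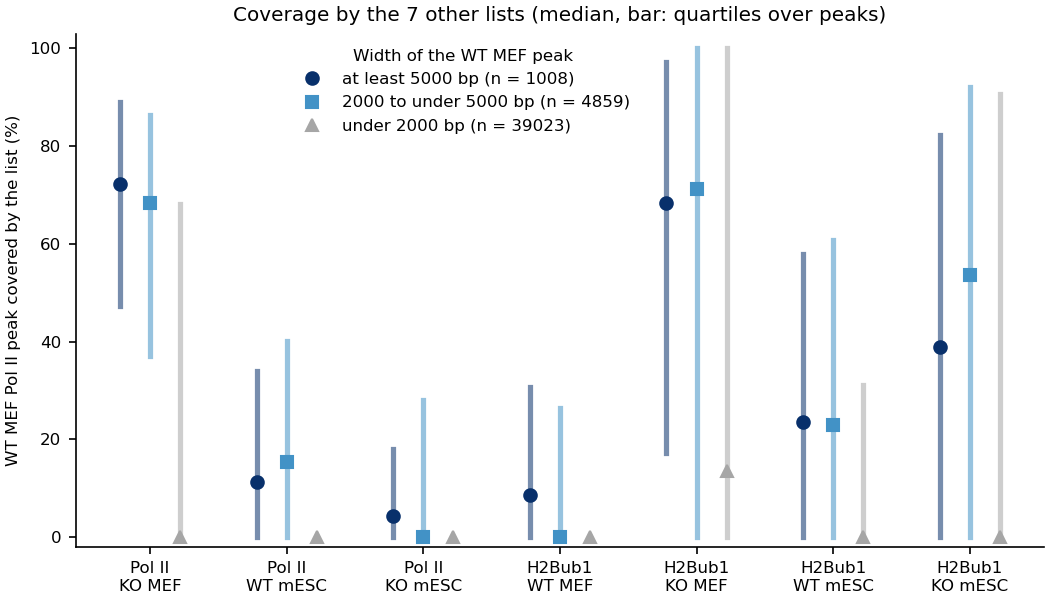
Share (%) of a WT MEF Pol II peak covered by each of the 7 other lists, for 3 width classes: symbols are medians and bars quartiles over peaks of 1 library. Wide domains sit at 72.3% for KO MEF Pol II and 68.3% for KO MEF H2Bub1, and at 8.57% for WT MEF H2Bub1; peaks under 2000 bp have a median of 0 in all lists but KO MEF H2Bub1.

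The number of wide domains that met a wide peak in KO MEFs depended on how gaps were treated. The KO list held 393 autosomal peaks of at least 5000 bp, and 254 domains, or 25.2% (22.5 to 28.0), touched one of them. With KO peaks less than 1000 bp apart joined, the share was 59.5%, and for domains of at least 8000 bp it was 40.3%. The domains were met by a single KO peak in 198 cases, with a median coverage of 92.1%, by 2 in 264 (78.2%) and by 3 or more in 500 (66.9%). The highest KO fold in a domain was lower than its WT fold by a median log2 difference of -0.47 (-0.50 to -0.42) over 962 domains. Each fold is relative to its own library, so this sets no level between them. The domains were also chosen in the WT list, where wide peaks had the higher folds, and the reverse was not measured for fold.

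Because the domains were chosen as wide in WT, coverage was measured in reverse as well. Of the 393 wide KO peaks, 266 (67.7%) touched a wide WT domain, and WT peaks covered a median of 98.2% (96.8 to 99.0) of them. The WT MEF Pol II list was the larger one, with 45870 peaks over 51.5 Mb against 32232 peaks over 32.4 Mb in KO MEFs, and its part in this asymmetry was not tested. No WT peak touched 32 of the wide KO peaks. The widest of these lay at Atp1b1, a subunit of the sodium pump (17545 bp, fold 26.8), at Ezr, which encodes the membrane linker ezrin (12336 bp, fold 7.17), at Upk1b, which encodes a uroplakin (11204 bp, fold 38.6), and at Fam110c (11041 bp, fold 15.0). A further peak of 9958 bp lay in Ezr. Next by width were peaks at Lrrn4, Bnc1, Upk3b and Wt1, named after their values were seen. Wt1 and Upk3b are known markers of mesothelium, the lining of body cavities. KO MEF H2Bub1 covered 100% of the peaks at Upk1b, Lrrn4 and Wt1, 75.9% of that at Bnc1 and 54.9% of that at Upk3b, and WT MEF H2Bub1 covered none of them. At Atp1b1 the KO MEF share was 43.5%, and at the Fam110c peak of 11041 bp it was 16.0%. The Ezr peaks had 100% and 71.5% in KO and 10.9% and 2.97% in WT MEFs. Narrower peaks at Arhgef16 and B4galt4 had 0% in KO MEFs. Different cells in the KO culture and more Pol II per cell cannot be told apart in bulk chromatin.

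No KO MEF Pol II peak touched 46 domains. Of these, 8 belonged to Col5a1 and 4 to Hox genes, 5 touched no coding gene, and most of the others were the only such domain of their host. Their median fold in WT MEFs was 7.60. In 34 of them, or 73.9% (58.9 to 85.7), the KO MEF H2Bub1 list was empty too. Of these 34, 28 had no H2Bub1 peak in WT MEFs either, and 6 had one in WT MEFs only. KO MEF H2Bub1 was absent in 10.5% (8.40 to 13.0) of the 731 domains that KO Pol II covered at 50% or more. It was absent in 81 of the 231 domains that were touched but covered less. In the weakest group by strength, which held 26 of the 46 domains, it was absent in 95 of 201. The part of strength in this contrast was not tested. Among the 46 domains, those with the highest WT fold were the H19 domain with 34.0 and the Postn domain with 26.6.

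Col5a1 carried 9 wide domains, which together took 75.3% of the gene. In WT MEFs, Pol II peaks of any width covered 97.3% of Col5a1, and in KO MEFs 2.17%, a single peak at the start. The start domain (chr2:27884682-27897653) kept a KO share of 30.2% and the other 8 had 0%. The H2Bub1 share of the gene was 39.9% in WT and 36.6% in KO MEFs. The widest Col5a1 domain, in the 3′ part of the gene, had an H2Bub1 share of 2.68% in WT and 0% in KO MEFs, while a domain nearer the start (chr2:27917770-27928641) had 100% and 95.2%.

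**Figure D4:**
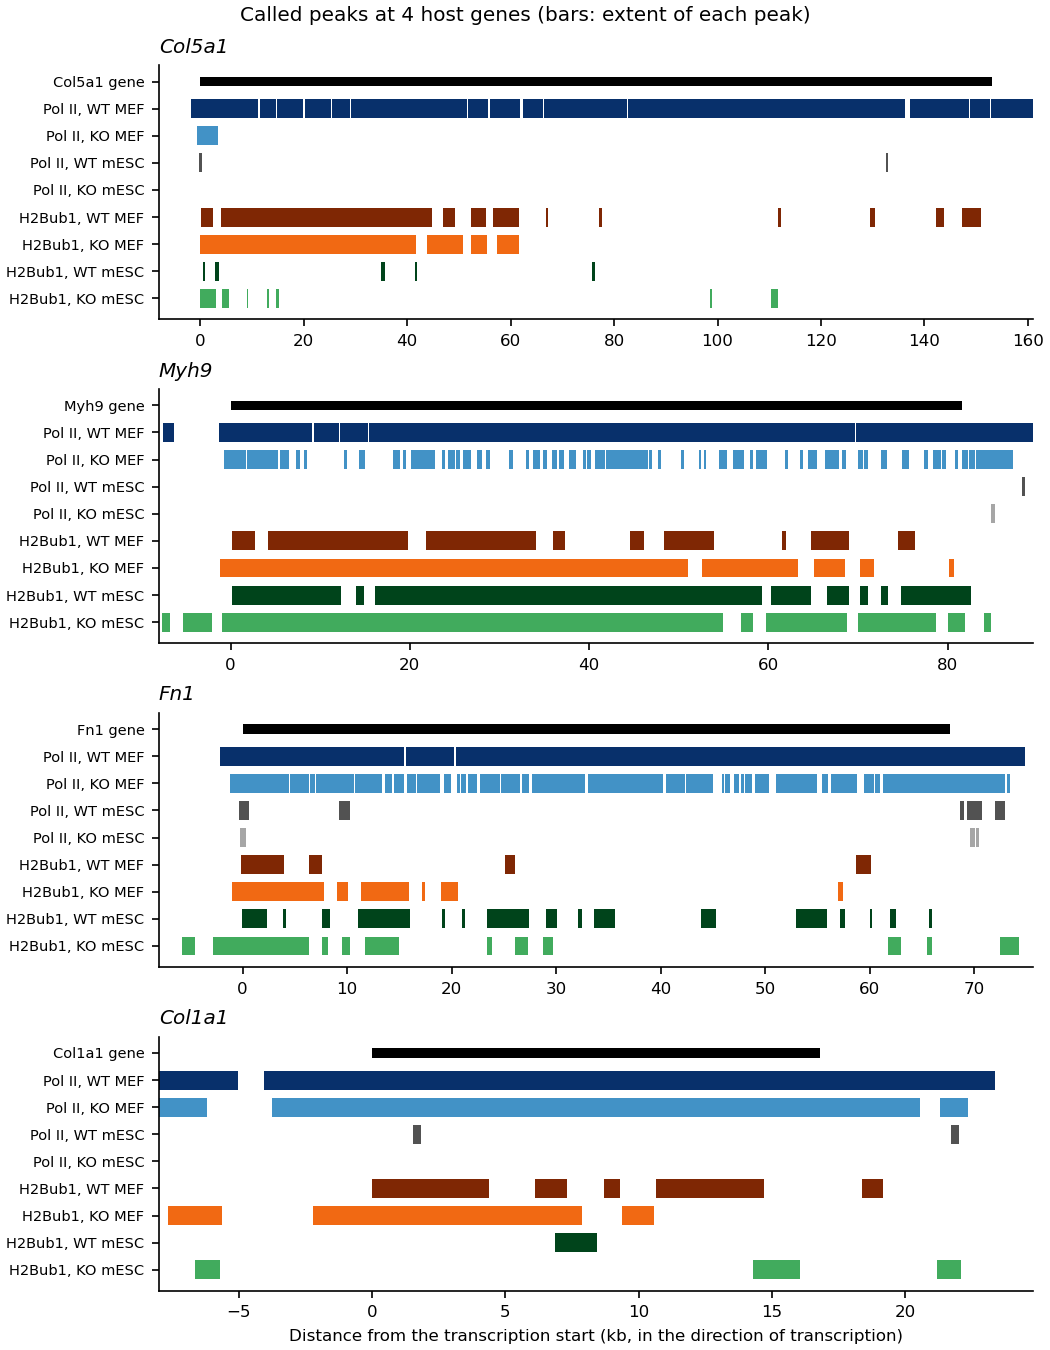
Peaks of the 8 lists at Col5a1, Myh9, Fn1 and Col1a1, by distance (kb) from the TSS in the direction of transcription; each bar is the extent of a called peak and the black bar is the gene. Pol II of KO MEFs is a single peak at the start of Col5a1 (2.17% of the gene), many separate peaks over Myh9 (48.4%) and Fn1 (87.4%), and 2 peaks over the Col1a1 domain.

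Igf2 and H19, neighbouring imprinted genes of fetal growth, had no peak of any of the other 7 lists in their wide domains. The Igf2 domain spanned chr7:142648361-142661462 (13102 bp, fold 15.4) and covered 66.6% of the gene. The H19 domain spanned chr7:142573347-142579105 (5759 bp). Further domains at 0% in KO MEFs lay inside Fstl1, which encodes a secreted glycoprotein (9481 bp), inside Igfbp5, which encodes a binding protein of insulin-like growth factors (8769 bp), and past the end of Pdgfrb, the beta receptor of platelet-derived growth factor (8912 bp). One of 9155 bp (chr2:125289779-125298933) lay 1660 bp past the end of Fbn1, which encodes fibrillin 1, and touched no coding gene.

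Hox genes, which set position along the body axis, hosted 6 wide domains, and these are named after their values were seen. The KO MEF share was 0% at Hoxa10, Hoxa11, Hoxd11 and Hoxd12, 3.75% at Hoxa9 and 28.2% at Hoxb9. The widest, at Hoxa11 (chr6:52243387-52254821, 11435 bp), began 9011 bp upstream of the TSS. Hoxb9 alone had WT mESC Pol II, over 48.3% of its domain. The domains of Tbx5, a gene of the forelimb and heart, of Prrx1, a gene of limb mesenchyme, and of Hmga2, a chromatin protein of embryonic cells, also included ones at 0%. Pol II peaks of any width covered 86.6% of Prrx1 in WT and 2.61% in KO MEFs, and 75.9% and 5.61% of Hmga2. The tissue of origin of the embryo cells and the loss of ATXN7L3 cannot be told apart for such genes with 1 library per genotype.

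Several long genes were broken into many domains. Cald1, which encodes the actin-binding caldesmon, held 12, and WT MEF Pol II covered 93.0% of the gene against 44.6% in KO MEFs. Cdh11, a cadherin of mesenchymal cells, held 7 (85.9% against 28.1%). Nuak1, a kinase that acts on myosin phosphatase, held 6 (95.9% against 34.9%), Fstl1 6 (90.8% against 19.3%) and Nedd4, a ubiquitin ligase, 6 (86.0% against 28.9%). Actn1, which encodes the actin crosslinker alpha-actinin 1, held 5 (88.4% against 24.0%), and so did Tnc, which encodes tenascin C (89.9% against 68.8%). These genes were singled out for their number of domains.

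Pol II of mESCs was found in part of the domains. WT mESC peaks touched 64.2% (61.1 to 67.2) of them, against 21.7% of all autosomal WT MEF Pol II peaks, and covered a median of 11.2% (9.14 to 13.8). KO mESC peaks touched 54.0% (50.8 to 57.1) against 17.0%, with a median of 4.24% (2.70 to 5.24). The mESC Pol II lists were smaller than that of WT MEFs, with its 45870 peaks over 51.5 Mb. WT mESCs had 17074 peaks over 12.5 Mb and KO mESCs 11963 over 7.65 Mb. With equal numbers of peaks the medians were 11.2% and 6.10%, and the part of list size was not tested further. Among peaks of like fold, 64.1% of wide domains and 63.6% of narrower peaks were touched in WT mESCs, and the wide ones were covered less, with medians of 10.9% (8.03 to 14.3) and 28.5% (27.4 to 29.4). In KO mESCs these medians were 4.22% and 21.2%. In both lists 331 domains had no peak at all. The mESC lists held few wide peaks of their own, 42 in WT and 12 in KO, of which 21 and 5 touched a wide MEF domain.

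The 5 domains with the largest share in WT mESCs were above 95%. Klf2, a transcription factor gene that naive mESCs express, had 100% of its domain (chr8:72318643-72325456) inside WT mESC peaks and 72.9% inside KO MEF peaks. The domain of the snoRNA host Snhg15 had 99.1%, one that reached the start of Fgf18 had 96.1%, and Hist1h3d, which held 5 whole histone genes, had 95.6%. Ubtf, which encodes a factor of ribosomal RNA transcription, had 95.3%. In the opposite direction, the widest domains empty in both mESC Pol II lists were those in Myh9, Fn1, Csf1 and Pmepa1 and the one with Mir125b-1. WT mESC H2Bub1 covered 92.4%, 31.7%, 1.24%, 46.1% and 0% of them in this order.

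H2Bub1 peaks touched fewer domains in WT MEFs than in any other H2Bub1 list. They touched 56.4% (53.3 to 59.5) in WT MEFs, 81.0% (78.4 to 83.3) in KO MEFs, 69.4% (66.5 to 72.3) and 72.8% (70.0 to 75.5) in mESCs of WT and KO. For all autosomal WT MEF Pol II peaks these shares were 18.7%, 53.7%, 33.5% and 45.7%. Among peaks of like fold, WT MEF H2Bub1 touched 54.2% of wide domains and 32.2% of narrower peaks. The order was the other way for KO MEFs, with 85.7% and 89.9%, and for KO mESCs, with 74.6% and 86.3%, while WT mESCs had 71.6% and 68.4%. A touch needs 1 bp, so a wider peak is touched more easily. Of the bases in these wide and narrower peaks, WT MEF H2Bub1 covered 16.0% and 15.0%, and KO MEF H2Bub1 61.2% and 69.3%. WT mESC H2Bub1 covered 33.1% and 38.5%, and KO mESC H2Bub1 46.3% and 64.1%. The median covered part of a domain was 8.57% (5.08 to 11.3), 68.3% (63.5 to 72.1), 23.5% (20.8 to 26.8) and 38.8% (34.4 to 43.7) in the same order. With only peaks of a -log10 q of at least 3, the KO MEF median was 64.3% and the other 3 medians were 0%, so the difference between the mESC lists was not seen there. The WT MEF median ran from 2.36% to 17.8% with other widths and joined peaks. The KO MEF list as a whole covered 223 Mb and the WT MEF list 48.1 Mb, and how much of the gap within domains follows from that was not tested.

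The direction was the same in most single domains. H2Bub1 coverage was higher in KO than in WT MEFs by over 1 percentage point in 792 domains and lower in 33, and in mESCs higher in 560 and lower in 199. In MEFs, 553 domains had H2Bub1 in both genotypes, 263 in KO only, 16 in WT only and 176 in neither. By strength, the KO MEF median went from 5.44% in the weakest group over 29.9%, 72.1% and 87.0% to 85.5% in the strongest.

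H2Bub1 coverage also followed position. The KO MEF median was 90.9% for domains at a start, 88.4% for those inside a gene, 73.1% over whole genes and 42.6% at an end. It was 3.08% where no coding gene was touched. In WT MEFs the medians were 22.5%, 6.88%, 24.6%, 0% and 0% in the same order. KO MEF Pol II had another order, with 88.5% over whole genes, 77.4% at starts, 70.4% at ends, 66.7% without a coding gene and 56.6% inside genes. Domains inside genes thus had the lowest Pol II median of KO MEFs and, after those at starts, the highest H2Bub1 median.

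The most and least ubiquitylated domains of WT MEFs lay at named genes. H2Bub1 covered 100% of 8 domains, of which the 5 widest were those in Cdh11 (chr8:102729610-102743806), Plec, which encodes the cytolinker plectin (chr15:76172028-76183625) and Nuak1, a further one in Cdh11 and the Col5a1 domain nearer the start named above. The widest domains with none lay past the end of Col3a1, the alpha 1 chain of type III collagen (chr1:45346977-45366244, of which 16538 bp lay past the gene), at the end of Vmp1 with Mir21a, over Rflna, in Cald1 and at the end of Fn1. The domain past Col3a1 also had 0% in the other 3 H2Bub1 lists, with a KO MEF Pol II share of 41.6%. In KO MEFs the widest domains with none were those of Col5a1 and Col3a1, the end of Col1a2 (15284 bp, with a Pol II share of 80.4%), Rflna and the end of Fn1.

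Gene lists were used to describe the hosts by role. Their members were counted as hosts, against the 3.80% of all 20807 autosomal coding genes that hosted a domain. Their domains were compared with all domains by medians. A WT MEF Pol II peak lay at the promoter of 11497 coding genes. It did so at 43 of 45 genes of the actin list and 25 of 42 collagen genes. Host shares were not compared among genes with such a peak alone. The lists were chosen with earlier results of these data known, and no test was made on them.

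The collagen list was dominated by Col5a1. Of 42 collagen genes 8 hosted 19 domains, a share with an interval of 8.60 to 34.1%, against 3.80% of all coding genes. The median KO MEF Pol II share was 30.2%, with 8 domains at 0%, all of Col5a1, which held 9 of the 19. Over the other 10 domains the median was 71.1% (41.6 to 92.5), near the 72.3% of all domains. Col1a1 had 92.5% and the 4 domains of Col1a2 61.7% to 92.0%, while the end of Col3a1 had 41.6%. WT mESC Pol II was at 0% in 15 of 19, against 35.8% of all domains. The H2Bub1 median was 10.7% in WT and 26.7% in KO MEFs, and coverage was higher in KO in 8 domains and lower in 6, against 792 and 33 of all 1008. Those lower in KO were also domains of Col5a1, apart from the end of Col1a2, with 3.33% in WT and 0% in KO MEFs.

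Other matrix and adhesion genes hosted 44 domains at 21 of 53 genes (39.6%; 26.5 to 54.0). Over all coding genes the share of hosts was 3.80%. The KO MEF Pol II median was 72.3%, the same as for all domains, with values from 0% to 100%. The domain over Thbs1, which encodes thrombospondin 1 (22911 bp), had 96.8%, and the widest one of Sparc (19908 bp), a matrix glycoprotein, had 98.5%. WT mESC Pol II was at 0% in 36 of the 44, against 35.8% of all domains.

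The actin cytoskeleton list had the largest share of hosts, 31 of 45 genes (68.9%; 53.4 to 81.8) with 54 domains. The share over all coding genes was 3.80%. The actin list is broader than its name and also holds tubulins, vimentin, lamin A, annexin A2 and a galectin. The KO MEF Pol II median of its domains was 70.9% and none was at 0%. Pdlim7 (22702 bp), a LIM protein on actin fibres, had 75.6%, and Acta2 (21968 bp), smooth muscle actin, had 70.1%. The median KO MEF H2Bub1 share was 97.9%, against 68.3% for all domains, although Acta2 had 6.90%. H2Bub1 was higher in KO than in WT MEFs in 49 of the 54 domains and lower in 2, against 792 and 33 of all 1008.

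Immediate early and SRF-responsive genes hosted 24 domains at 22 of 35 genes (62.9%; 44.9 to 78.5). Over all coding genes the share of hosts was 3.80%. The median share of the gene inside the domain was 100%, and the KO MEF Pol II median was 88.6%, with no domain below 56.2%. That median was 88.5% for all domains over a whole gene and 89.2% in the strongest group of domains. Ccn1, a matricellular signal protein (14641 bp), had 91.6%, Fosl2, an AP-1 factor, 94.1% and 88.3% in 2 domains, and Mcl1, a survival factor, 81.8%. H2Bub1 was higher in KO than in WT MEFs in all 24, against 792 of all 1008 domains. The Actg1, Cnn2 and Srf domains, whose CArG boxes are printed above, had KO MEF Pol II shares of 92.0%, 55.7% and 85.1%.

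The lists of basic cell functions had WT mESC medians from 18.3% to 86.4%, against 11.2% for all domains. This median was 32.1% for all domains over a whole gene and 29.0% in the strongest group of domains. The shares of hosts on these lists stand beside 3.80% of all coding genes. Cytosolic ribosomal proteins hosted 23 domains at 22 of 79 genes (27.8%; 18.3 to 39.1), with a median of 85.3% in KO MEFs and 70.3% in WT mESCs. Among them Rps12 (11541 bp) had 99.0% and 64.0%, and Rps19 (10335 bp) 93.1% and 53.1%. Replication-dependent histones hosted 7 domains at 7 of 67 genes, though 23 of their genes were touched by a domain, and had a WT mESC median of 86.4%. Their H2Bub1 median was 0% in WT and 57.9% in KO MEFs, and 21.6% in WT and 0% in KO mESCs, where 6 of the 7 had none.

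The translation factor list, which also holds the nucleolar genes Ncl and Nop56, hosted 10 domains at 9 of 27 genes, with medians of 91.1% in KO MEFs and 40.6% in WT mESCs, and splicing and hnRNP genes 11 at 9 of 41, with 86.4% and 28.6%. Glycolysis genes hosted 5 domains at 4 of 15 genes, with 68.8% and 18.3%, and chaperones 5 at 5 of 26, with 78.2% and 26.9%. The widest glycolysis domain, at the pyruvate kinase gene Pkm, had 89.3% in KO MEFs and 14.5% in WT mESCs, and Gapdh had 95.9% and 68.6%. Hsp90ab1, a cytosolic chaperone, had 99.5% and 68.5%, and Hspa5, the main chaperone of the endoplasmic reticulum, 77.2% and 17.1%. None of 6 pluripotency factors hosted a domain.

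**Figure D5:**
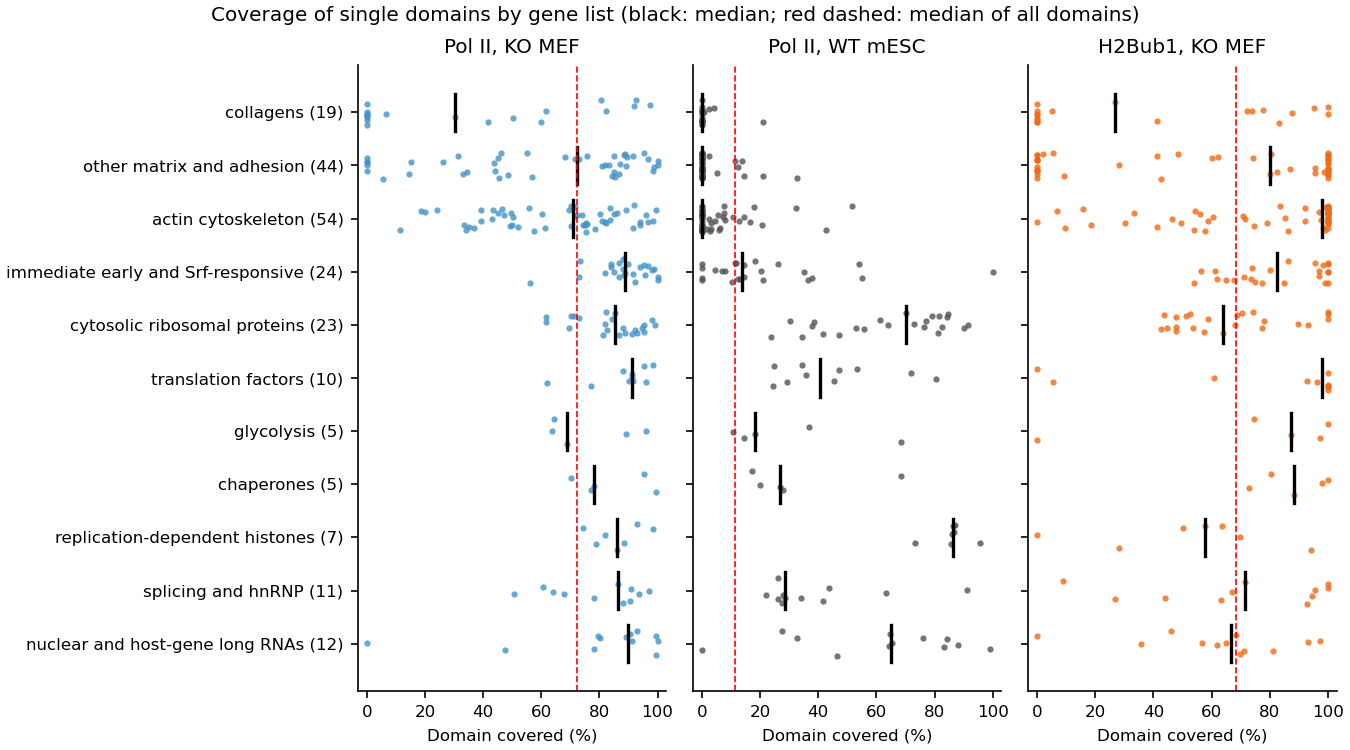
Each point is a wide domain with a host on the list (number of domains in parentheses), by the share (%) covered by KO MEF Pol II, WT mESC Pol II and KO MEF H2Bub1 peaks; black bars are list medians and red dashed lines the medians of all domains (72.3%, 11.2% and 68.3%). Collagens are at 30.2% for KO MEF Pol II with the 9 domains of Col5a1 and at 71.1% without them, histones and ribosomal proteins sit highest for WT mESC Pol II at 86.4% and 70.3%, and the actin list reaches 97.9% for KO MEF H2Bub1.

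Of 23 listed nuclear or snoRNA-hosting RNAs annotated as non-coding, 12 touched a wide domain, against 2.29% of the 8875 autosomal lincRNA, processed transcript and antisense genes. The list holds RNAs known to be abundant. Their median share was 90.0% in KO MEF Pol II and 65.0% in WT mESC Pol II. The Malat1 domain was at 100% in KO MEFs and at 75.9% and 73.2% in mESCs of both genotypes, and its H2Bub1 shares were 56.5% in WT and 97.2% in KO MEFs. The Neat1 domain had 27.4% and 29.3% in WT and KO mESCs, and H2Bub1 shares of 9.80% and 81.2% in WT and KO MEFs. Gas5, an RNA that hosts many snoRNAs, lay in a domain of 9705 bp with 90.7% in KO MEFs. H19 was the exception with 0% in all other lists.

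The 89 domains without a coding gene mostly lay past the end of a gene. Of these, 72 lay on the side of the transcript end of the nearest coding gene, 60 of them within 5000 bp of it, and the median distance was 2173 bp. Another annotated gene was present in 35, a lincRNA in 16 of them and a miRNA in 5, and 54 held no annotated gene. Only 16 were more than 20000 bp from a coding gene. Their KO MEF Pol II median was 66.7%, but KO MEF H2Bub1 covered a median of 3.08% and was absent in 44.

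The 10 widest differed in what they held. After the domains of Carmn, Mir125b-1 and Malat1 came one of 11630 bp at chr6:31048779-31060408, 89700 bp from Klf14 and without any annotated gene, with a KO MEF share of 79.3%. Its neighbour at chr6:31069922-31079217 (9296 bp) had 74.5%, and H2Bub1 covered 11.8% of the former and 100% of the latter in KO MEFs. Next was one of 10410 bp at chr6:91273652-91284061, 1111 bp past the end of Fbln2, a fibulin gene, with 40.8% and no H2Bub1 in any list. Others lay over the lincRNA 5031425E22Rik beside Kmt2e (10040 bp, 37.2%), over the lincRNA Gm26981 beside Rab30 (9246 bp, 84.3%), past Fbn1 (9155 bp, 0%) and over Mirlet7i (9104 bp, 96.1%).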

How the data were processed

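Chromatin of WT and KO mESCs and MEFs was immunoprecipitated for RPB1 or H2Bub1, and 8 of the 16 labelled samples, each with 1 peak list, were used; inputs and libraries for Ser2-phosphorylated Pol II were not analysed here. The authors aligned single-end reads to mm10 and called peaks per library, narrow for Pol II and broad for H2Bub1; the submitters' processing notes name bcl2fastq 2.17.1.14, Bowtie 1.0.0 and MACS2 2.1.1.20160309. The control and thresholds of peak calling are not given in the sources used here. The deposited fold is a linear ratio over local background, and the deposited -log10 p and -log10 q come from the same caller. The deposited score, a display value, and the authors' summit offset complete each line; no other value columns of unknown samples were found. H2Bub1 signal was scaled by the authors with size factors over intergenic regions and Pol II signal by total mapped reads. The depth is unknown, so a deeper library could give more and wider peaks.

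Positions were converted to 1-based coordinates and set against GENCODE M21 of the same build. The host was the autosomal protein-coding gene with the most bases in the domain. A covered share is the percentage of a domain's bases inside the peaks of another list, and a touch needs 1 bp. Shares have exact Clopper-Pearson and medians exact binomial 95% intervals; no test was possible with 1 library per group. Domains were named as the 10 widest and the 10 of highest fold, the 3 on each side of the threshold, the lowest in KO MEFs, the extremes in mESCs and for H2Bub1, wide KO peaks absent from WT, hosts on the gene lists and the 10 widest without a coding gene. The domains and gene lists were chosen with earlier results of these data known. Alternatives were widths of 4000 and 8000 bp, joined peaks, peak lists limited to a -log10 q from 3 up or to the same number of peaks, and other host rules. Functions were tested on simulated peaks. Python 3.11.15, numpy 2.4.6, pandas 2.3.3, scipy 1.17.1 and matplotlib 3.10.9 were used.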

Additional observations from a re-analysis of the deposited data

Results flagged for a closer look

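The widest Col5a1 domain was picked out because its H2Bub1 coverage moved in opposite directions in the 2 cell types. KO minus WT was -2.68 percentage points in MEFs and 3.37 percentage points in mESCs. There is 1 library per group and the difference was not tested.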

How the results depend on the processing

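No paired analysis was possible because each group has 1 library and the labels give no replicate numbers. Of 69 alternative values, 32 stayed within the interval of the reported value, or within 1.5 times a count, and 37 moved; the cause was not tested. With a width of 4000 bp there were 1612 domains: KO MEF Pol II 69.5%, WT MEF H2Bub1 2.64%, a wide KO peak in 17.1%, host covered 16.3% and end passed in 42.8%. With 8000 bp there were 318: KO MEF Pol II 76.5%, H2Bub1 17.8% in WT MEFs, 73.6% in KO MEFs, 34.1% in WT mESCs and 50.3% in KO mESCs, a wide KO peak in 40.3%, host covered 40.8% and end passed in 63.4%. Joining WT MEF Pol II peaks less than 1000 bp apart gave 2380 domains: Pol II 43.7% in KO MEFs, 7.01% in WT mESCs and 1.04% in KO mESCs, H2Bub1 2.36%, 56.3%, 18.4% and 32.5% in WT MEFs, KO MEFs, WT mESCs and KO mESCs, a wide KO peak in 11.6% and end passed in 53.7%.

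Joining peaks of the other list raised KO MEF Pol II to 84.2% and domains with a wide KO peak to 59.5%, so the latter depends on how gaps are treated. A -log10 q of at least 3 brought the H2Bub1 median to 0% in WT MEFs, WT mESCs and KO mESCs, and left KO MEFs at 64.3%. With equal numbers of peaks, KO mESC Pol II was 6.10%. For hosts at least 5000 bp from another coding gene, the host covered was 11.3% and the end passed in 39.3%. With 1 domain per host gene, an alternative chosen after seeing the data, 880 domains gave 14.5% in WT mESCs, 5.72% in KO mESCs, host covered 27.3% and end passed in 54.1%. The order of the 4 H2Bub1 medians, lowest in WT MEFs and highest in KO MEFs, was the same at each width and with joined peaks.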
